A study of Mus musculus with 10 samples.

Results

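The nuclear-encoded genes of the mitochondrial respiratory chain were followed across all libraries of a study of regulatory T cells of the colon (Tregs), which are CD4 lymphocytes marked by Foxp3 that hold immune responses in check. Members were the protein coding rows of the deposited gene table whose names begin with Nduf (complex I and its assembly factors), Uqcr (complex III), Cox4 to Cox8 (complex IV) or Atp5 (complex V, the ATP synthase), together with Sdha, Sdhb, Sdhc and Sdhd (complex II). The rule took 94 of 54532 rows: 46 for complex I, 4 for complex II, 8 for complex III, 18 for complex IV and 18 for complex V. Smart-seq2, which copies whole transcripts into cDNA from little RNA, had been applied to cells sorted as CD45+CD3+CD4+CD25+GFP+. The 5 Tumor libraries came from colon tumours of mice with the Apc Min/+ and Foxp3 DTR alleles, and the 5 WT libraries from the colon of mice with Foxp3 DTR and no Apc Min/+ allele. All mice were 16-week-old C57BL/6 males, so Foxp3 DTR, a diphtheria toxin receptor allele at the Treg-defining gene, was shared by both groups. Apc Min/+ is a germline allele, so every cell of the Tumor mice carried it. No label says that the libraries of a group came from separate animals, and p-values measure the spread between these libraries, which may be technical.

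The respiratory chain passes electrons from NADH through complex I, or from succinate through complex II, by ubiquinone to complex III and by cytochrome c to complex IV, which reduces oxygen. Complexes I, III and IV pump protons across the inner mitochondrial membrane, and the ATP synthase uses the returning protons to make ATP. Most subunits are encoded in the nucleus and a few in mitochondrial DNA. Tregs are known to depend on this chain, complex III included, for their suppressive function.

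The libraries held 3054435 to 7747699 counted reads in the Tumor group and 1676229 to 8412887 in the WT group. All 7 sort markers (Ptprc, Cd3d, Cd3e, Cd3g, Cd4, Il2ra and Foxp3) had reads in every library, but 14 genes expressed by T cells in general (pan-T genes) summed to 4721 to 6691 CPM (counts per 1000000 reads counted in the library) in Tumor and to 167 to 1553 in WT. Genes of the gut epithelium (16 genes) summed to 45.5 to 5764 CPM in Tumor, to 27458 and 36270 in WT 1 and WT 2, and to 168 to 282 in WT 3, 4 and 5. Reads of Gm10800, a repeat-like gene model, made up 9.92, 22.3 and 26.5% of WT 3, 4 and 5 and at most 5.77% of any other library. Macrophage and monocyte genes (12 genes) summed to 1349 to 6107 CPM in Tumor and to 75.2 to 173 in WT. WT 1 and 2 thus stood apart from WT 3, 4 and 5 in genes outside the chain, and the main results below are given against all 5 WT libraries and against each of these subsets. These subsets are not groups of the study.

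Respiratory chain genes took a nearly even share of the Tumor libraries and an uneven one of the WT libraries. Their summed level was 13216, 14323, 16649, 13985 and 21008 CPM in Tumor 1 to 5, a mean of 15836 ± 3162 (SD, n = 5). It was 34405 and 44247 CPM in WT 1 and 2 and 3919, 5066 and 1456 CPM in WT 3, 4 and 5, a mean of 17818 ± 19982 (SD, n = 5). The group means were close, yet no WT library lay within the Tumor range: 2 were above it and 3 below it. Members took 1.32 to 2.10% of all reads in Tumor, 3.44 and 4.42% in WT 1 and 2, and 0.392, 0.507 and 0.146% in WT 3, 4 and 5. In bulk samples, fewer cells of a type and less RNA per cell cannot be told apart.

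**Figure D1:**
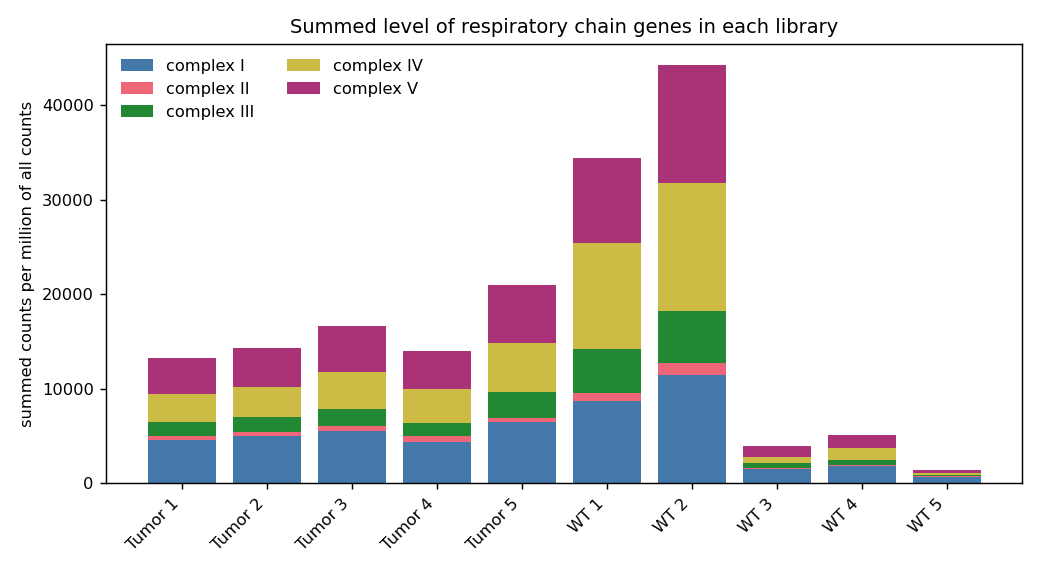
Summed level of the respiratory chain genes in each library in CPM (vertical axis), stacked by complex I to V, for Tumor 1 to 5 and WT 1 to 5. The Tumor bars stand between 13216 and 21008, WT 1 and 2 above them at 34405 and 44247, and WT 3, 4 and 5 below them at 3919, 5066 and 1456.

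The order of WT, Tumor and WT libraries was the same in all 5 complexes. Complex I summed to 4420 to 6438 CPM in Tumor, to 8691 and 11402 in WT 1 and 2, and to 693 to 1781 in WT 3, 4 and 5. Complex II, which also works in the citric acid cycle, summed to 333 to 593 CPM in Tumor, to 876 and 1374 in WT 1 and 2, and to 56.4 to 112 in the other WT libraries. Complex III summed to 1360 to 2706, to 4590 and 5394, and to 145 to 567 CPM in the same order. No complex had a WT library inside its Tumor range. Complex IV summed to 2989 to 5187 CPM in Tumor, to 11275 and 13628 in WT 1 and 2, and to 215 to 1234 in WT 3, 4 and 5. Complex V summed to 3728 to 6169, to 8974 and 12448, and to 346 to 1371 CPM. The mean of WT 1 and 2 was 1.93 times the Tumor mean for complex I and 3.28 times for complex IV, with complexes II, III and V at 2.44, 2.79 and 2.34 times. The Tumor mean was 3.89 times that of WT 3, 4 and 5 for complex I, 5.39 for complex II, 4.497 for complex III, 5.26 for complex IV and 4.90 for complex V. These ratios rest on few WT libraries. In a check added after seeing the data, with WT 3 left out they were 4.21, 5.48, 5.02, 5.24 and 5.33 for complexes I to V. They were 4.65, 6.37, 5.72, 8.15 and 6.402 with WT 4 left out, and 3.13, 4.61, 3.41, 3.89 and 3.73 with WT 5 left out. The order of the complexes differed without WT 3 and without WT 4 and was kept without WT 5, and complex I was lowest each time.

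The balance between complexes also differed among libraries. Complex IV held 22.6 to 25.8% of the members' reads in Tumor, 32.8 and 30.8% in WT 1 and 2, and 18.3, 24.4 and 14.8% in WT 3, 4 and 5. Complex I held 30.6 to 35.2% in Tumor, 25.3 and 25.8% in WT 1 and 2, and 39.5, 35.2 and 47.6% in WT 3, 4 and 5. The ATP synthase kept a steadier share, 28.2 to 29.4% in Tumor and 23.8 to 28.1% in WT. Read depth on members was thin in the low libraries: of the 88 members tested below, 18, 5 and 28 had under 10 reads in WT 3, 4 and 5, against 0 to 5 in each Tumor library and 0 in WT 1 and 2. The order of members by level was alike in the deep libraries. Spearman's rho over the 88 members, as a description across genes of libraries that differ in depth, was 0.85 to 0.95 between Tumor libraries, 0.95 between WT 1 and 2, and 0.31 to 0.62 among WT 3, 4 and 5.

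**Figure D2:**
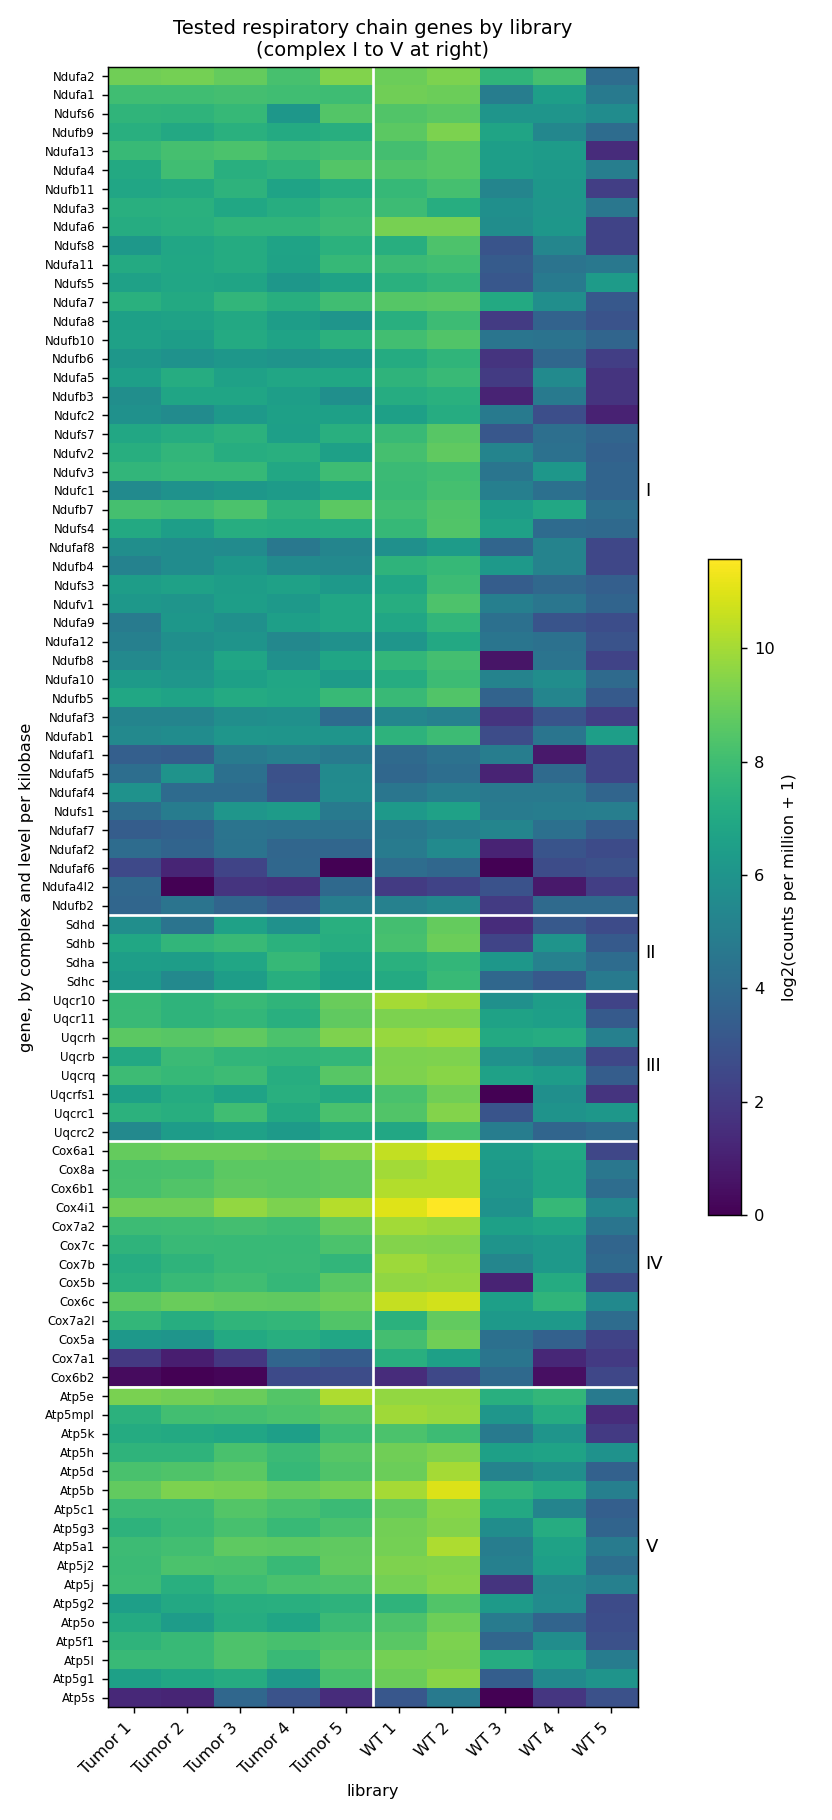
Level of the tested respiratory chain genes, 1 member left out (rows, ordered by complex and by level per kilobase) in each library (columns), coloured by log2(CPM + 1). Rows are brightest in WT 1 and 2, intermediate and even across Tumor 1 to 5, and darkest in WT 3 and WT 5.

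Levels between genes were compared per kilobase of the gene model, as means over all 10 libraries, which WT 1 and 2 weigh on most. The highest were Cox6a1 (910 CPM per kilobase) and Cox8a (778), small structural subunits of complex IV, followed by Ndufa2 (724), an accessory subunit of complex I, and Cox6b1 (638), a complex IV subunit that faces the intermembrane space. Ndufa1 and Cox4i1 both stood at 597, and Uqcr10, a small subunit of complex III, at 579. Ndufv1, the NADH-binding core subunit of complex I, stood at 37.8, and Sdhb, the iron-sulphur subunit of complex II, at 77.3. The order was not the same in every set of libraries. As a mean over the Tumor libraries alone, Ndufa2 stood highest at 883 CPM per kilobase, followed by Cox6a1 at 749, Cox8a at 667 and Ndufa1 at 628. Ndufa2 was above Cox6a1 and Cox8a in WT 3 and 4 as well, and below both in WT 1 and 2. The other 6 rows had too few reads to be tested: Cox4i2, Cox6a2, Cox7b2, Cox8b and Cox8c, which are tissue-restricted isoforms, and an additional row named Atp5o with 0 reads in every library.

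Whether the genes of the chain differ between tumour and normal colon Tregs was addressed first with all 10 libraries, by edgeR's quasi-likelihood test with Benjamini-Hochberg adjustment over all 21414 genes tested. At an adjusted p below 0.05, 0 of the 88 tested members were higher and 0 were lower in Tumor, where 1.37% of all genes tested were higher and 0.219% lower. One member, Cox7a1, had an unadjusted p below 0.05 in edgeR's test, and DESeq2 called that member alone, lower, where it called 3.18% of all genes higher and 4.53% lower. The median log2 fold change of the members (Tumor over WT) was -0.21, against -0.20 for all genes tested, and 29 members had a positive and 59 a negative value. The complex medians were 0.00 for complex I, -0.05 for complex II, -0.47 for complex III, -0.69 for complex IV and -0.21 for complex V. With limma voom, which fits each gene's log2 levels across the libraries, the members' median turned to 1.20, again with 0 called. The direction of the median in this comparison thus depended on the method, and values of a few fold were not resolvable against the WT spread.

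With WT 1 and 2 left out and libraries scaled by TMM, many members were higher in Tumor, as were T cell genes. In the edgeR test against WT 3, 4 and 5, 57 of 88 members were higher and 0 lower, where 6.37% of all 25230 genes tested were higher and 1.49% lower. The members' median log2 fold change was 2.42, against -0.17 for all genes tested. The members higher were 25 of 46 in complex I, 4 of 4 in complex II, 6 of 8 in complex III, 10 of 13 in complex IV and 12 of 17 in complex V. In Tumor 1 and 2, epithelial genes summed to 141 and 45.5 CPM, below the 168 to 282 CPM of these 3 WT libraries, while the members' sums were 13216 and 14323 CPM against 1456 to 5066. In Tumor 3, 4 and 5 the epithelial sums were higher (1245, 2224 and 5764 CPM), and in this comparison 4 of the 16 epithelial genes and 8 of the 12 macrophage and monocyte genes were higher in Tumor too. So were 11 of the 14 pan-T genes and 4 of the 7 sort markers. With libraries scaled by the pan-T genes 0 of 88 members were higher and 5 lower, where 0.246% of all genes were higher and 59.0% lower. The part of other cell types' RNA, of the Gm10800 reads and of depth in these differences was not tested. Leaving out WT 3, 4 or 5 in addition gave 30, 71 and 53 members higher, where 3.84, 7.75 and 4.35% of all genes were.

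With WT 3, 4 and 5 left out, the chain was lower in Tumor. In the edgeR test against WT 1 and 2, 38 of 91 members were lower and 0 higher, where 2.09% of all 30040 genes tested were lower and 2.32% higher. The median log2 fold change was -1.33, against 0.01 for all genes tested. The members lower were 10 of 46 in complex I, 1 of 4 in complex II, 7 of 8 in complex III, 11 of 16 in complex IV and 9 of 17 in complex V. The epithelial sum was 27458 and 36270 CPM in these WT libraries against at most 5764 in Tumor. Their pan-T sum was 167 and 511 CPM against at least 4721 in Tumor. The part of epithelial RNA and of the low pan-T level in the result was not tested. With WT 2 alone as the reference, 43 members were lower (1.63% of all genes), and with WT 1 alone 22 (0.718%). In both of these the lone library was assumed to vary like the Tumor group. The comparisons with WT 3 to 5 and with WT 1 and 2 share the Tumor libraries.

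**Figure D3:**
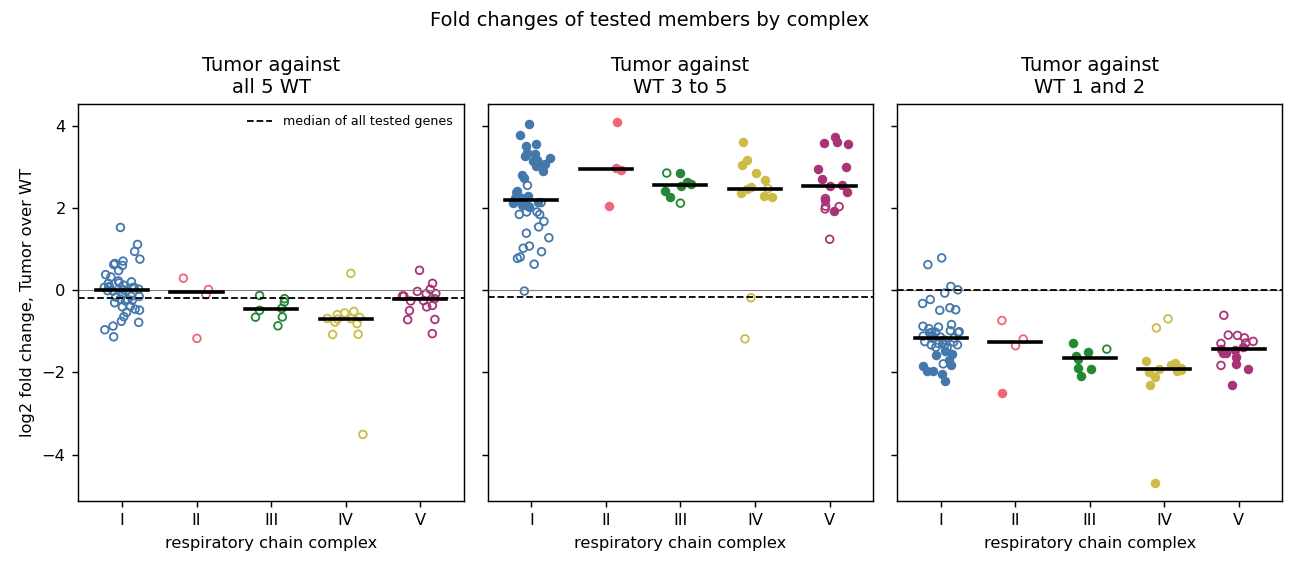
Log2 fold change (Tumor over WT, vertical axis) of each tested member by complex, against all 5 WT libraries, against WT 3 to 5 and against WT 1 and 2. Filled points had an adjusted p below 0.05 in edgeR's test with TMM scaling and open points did not. Black bars are complex medians and the dashed line is the median of all genes tested. No point is filled against all 5 WT libraries, 57 are filled above 0 against WT 3 to 5, and filled points are below 0 against WT 1 and 2.

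Levels per library showed the same position of Tumor without a model. Every Tumor library was below both WT 1 and WT 2 for 66 of 88 tested members (9.52% of all genes tested) and above all of WT 3, 4 and 5 for 71 (11.6%). Both held for 57 of 88 members, where they held for 1.02% of all genes tested. These were 23 of 46 in complex I, 2 of 4 in complex II, 7 of 8 in complex III, 10 of 13 in complex IV and 15 of 17 in complex V. No member had all Tumor libraries above all WT libraries or all below them, where 4.26% and 1.59% of all genes did.

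In complex I, whose core subunits carry the electrons and whose accessory subunits stabilise the arm structure, Ndufv1 (ENSMUSG00000037916, chr19:4007497-4012806 in mm10) had 72.0, 64.5, 89.4, 73.0 and 115 CPM in Tumor 1 to 5. It had 146 and 328 CPM in WT 1 and 2 and 31.0, 22.2 and 12.1 in WT 3, 4 and 5, with no overlap between Tumor and either set. Its log2 fold change was -0.48 ± 0.78 (SE) over all libraries (edgeR adjusted p = 0.787), 2.29 ± 0.56 against WT 3 to 5 (0.0156) and -1.71 ± 0.41 against WT 1 and 2 (0.0102). These and the edgeR values of single genes below are by TMM scaling unless another is named. With libraries scaled by the pan-T genes, 0 of 88 members were higher against WT 3 to 5, where 0.246% of all genes were. Ndufs1, the largest iron-sulphur subunit, was less separated: it had 16.7, 28.2, 66.3, 81.1 and 25.8 CPM in Tumor, 74.1 and 96.4 in WT 1 and 2, and 26.8, 28.9 and 29.9 in WT 3, 4 and 5. Tumor overlapped both sets for Ndufs1, and it passed none of these tests by TMM scaling.

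Ndufa1 (chrX:37187588-37191163), a small membrane subunit needed for complex I assembly, was the steadiest of the named members in Tumor, at 263, 262, 277, 263 and 250 CPM. It had 543 and 502 CPM in WT 1 and 2 and 28.6, 88.9 and 25.3 in WT 3, 4 and 5, so WT libraries lay on both sides of a narrow Tumor range. Ndufa2 overlapped more, with 535, 576, 457, 292 and 667 CPM in Tumor, 507 and 622 in WT 1 and 2, and 188, 286 and 16.1 in WT 3, 4 and 5. Ndufb4, the complex I member with the lowest log2 fold change over all libraries (-1.13 ± 0.76), had 34.6 to 68.3 CPM in Tumor, 183 and 217 in WT 1 and 2, and 72.8, 34.8 and 4.61 in WT 3, 4 and 5. It was lower than in WT 1 and 2 (-2.20 ± 0.42, edgeR adjusted p = 0.000984), while WT 3 lay above the Tumor range. Of 29 accessory subunits, 18 were higher against WT 3 to 5 (6.37% of all genes tested) and 8 lower against WT 1 and 2 (2.09%).

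The 8 assembly factors of complex I, which build the complex and leave it, had the narrowest range of sums within complex I. They summed to 171 to 206 CPM in Tumor, to 212 and 270 in WT 1 and 2, and to 109, 113 and 49.5 in WT 3, 4 and 5. One of 8, Ndufaf3, was higher against WT 3 to 5 (3.50 ± 0.80, edgeR adjusted p = 0.0107) and 0 of 8 were lower against WT 1 and 2, where 1 had an unadjusted p below 0.05. Of all genes tested, 6.37% were higher in the first comparison and 2.09% lower in the second, and nothing is read from these counts over 8 genes. Ndufaf3 was named after its values were seen. As a share of the complex I sum, assembly factors made up 3.18 to 4.44% in Tumor, 2.44 and 2.37% in WT 1 and 2, and 7.01, 6.34 and 7.14% in WT 3, 4 and 5. Ndufaf5, which modifies a core subunit, had the highest log2 fold change of all members over all libraries, 1.53 ± 0.78 (edgeR adjusted p = 0.341), and did not pass against WT 3 to 5 (2.38 ± 0.94, 0.124) or against WT 1 and 2 (0.79 ± 0.73, 0.98). Its levels were 17.2, 60.6, 18.6, 6.39 and 45.8 CPM in Tumor and 13.8, 17.1, 1.19, 14.8 and 4.03 in WT 1 to 5, and the groups overlapped.

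Complex II has 4 nuclear genes and no subunit from mitochondrial DNA. Sdhd (ENSMUSG00000000171, chr9:50596357-50603812), a membrane anchor of succinate dehydrogenase, had 52.5, 20.6, 96.4, 57.0 and 157 CPM in Tumor, 281 and 453 in WT 1 and 2, and 1.79, 8.52 and 5.18 in WT 3, 4 and 5. The value of 1.79 CPM rests on 3 reads. Tumor lay between the sets, and the log2 fold change was 4.10 ± 0.76 against WT 3 to 5 (edgeR adjusted p = 0.00363) and -2.50 ± 0.47 against WT 1 and 2 (0.000774). Sdha, the flavoprotein that oxidises succinate, had 88.9, 85.1, 116, 217 and 108 CPM in Tumor, 162 and 200 in WT 1 and 2 and 68.6, 32.6 and 16.1 in the rest. Tumor 4 was above both WT 1 and 2 for Sdha, which was higher against WT 3 to 5 (2.05 ± 0.60, 0.037 in edgeR's test) and did not pass against WT 1 and 2. Sdhb had 118 to 228 CPM in Tumor, 299 and 499 in WT 1 and 2, and 4.18, 62.2 and 8.64 in WT 3, 4 and 5, with no overlap.

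In complex III, Uqcrfs1, the Rieske iron-sulphur protein, had 95.1, 139, 104, 158 and 130 CPM in Tumor, 307 and 535 in WT 1 and 2, and 54.1 and 2.30 in WT 4 and 5. WT 3 had 0 reads of it, which allows up to 1.79 CPM (3 reads), counting error only. Uqcrfs1 was lower against WT 1 and 2 (-1.92 ± 0.40, edgeR adjusted p = 0.00218), and against WT 3 to 5 its value of 2.85 ± 1.02 did not pass (0.094). Uqcrc1, a core protein of the matrix arm, had 130 to 307 CPM in Tumor, 340 and 688 in WT 1 and 2 and 7.16, 60.4 and 67.9 in WT 3, 4 and 5, and it passed both tests. Uqcr10 had 219, 185, 224, 187 and 494 CPM in Tumor, 1021 and 907 in WT 1 and 2, and 55.5, 86.7 and 4.03 in WT 3, 4 and 5. Uqcr11, a neighbour of the Rieske protein, had 156 to 428 CPM in Tumor, 625 and 635 in WT 1 and 2 and 8.64 to 101 in the rest. For both, Tumor 5 was the highest Tumor library. Tumor 5 also had the highest epithelial, macrophage and monocyte, neutrophil and erythroid sums of the Tumor group, and the part of these was not tested. Uqcrh, the hinge protein at the cytochrome c docking side, had 316 to 639 CPM in Tumor, 896 and 977 in WT 1 and 2 and 31.7 to 141 in the rest.

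Complex IV, the oxidase, had the largest ratio of the WT 1 and 2 mean to the Tumor mean, and also of WT 1 alone (2.97) and WT 2 alone (3.59). All 10 subunits common to most tissues were lower against these 2 libraries (median log2 fold change -1.93), where 2.09% of all genes tested were. Against WT 3 to 5, 9 of 10 were higher (median 2.61), where 6.37% of all genes tested were. Cox4i1 (ENSMUSG00000031818, chr8:120668222-120674207), the common form of the largest nuclear subunit, had 533, 534, 839, 630 and 1259 CPM in Tumor, 2078 and 3056 in WT 1 and 2, and 59.7, 217 and 40.3 in WT 3, 4 and 5. Tumor did not overlap either set, and its log2 fold change was -0.69 ± 1.02 over all libraries (edgeR adjusted p = 0.767), 3.04 ± 0.77 against WT 3 to 5 (0.0176) and -1.96 ± 0.38 against WT 1 and 2 (0.001). Cox5a, which like Cox4i1 is part of the early assembly modules, had 65.2 to 151 CPM in Tumor, 277 and 537 in WT 1 and 2 and 18.5, 11.1 and 4.03 in the rest. Cox6a1 had 458 to 695 CPM in Tumor, 1461 and 2089 in WT 1 and 2, and 82.9, 123 and 4.61 in WT 3, 4 and 5. Cox8a had 281 to 425 CPM in Tumor, 1006 and 1209 in WT 1 and 2 and 23.0 to 108 in the rest. Cox6b1 and Cox7a2 followed the same order, with 298 to 433 and 247 to 459 CPM in Tumor, and in none of these 6 subunits did Tumor overlap either set of WT libraries.

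Cox7a2l, a factor that joins complexes III and IV into supercomplexes, departed from the subunits. It had 201, 148, 190, 202 and 345 CPM in Tumor, 168 and 439 in WT 1 and 2, and 72.8, 74.4 and 16.1 in WT 3, 4 and 5. WT 1 lay within the Tumor range, and the gene was higher against WT 3 to 5 (2.28 ± 0.63, edgeR adjusted p = 0.0285) without passing against WT 1 and 2 (-0.70 ± 0.42, 0.684).

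Cox7a1 (ENSMUSG00000074218, chr7:30184144-30186078), the form of subunit 7a known from heart and skeletal muscle, came nearest to a difference over all 10 libraries. It had 2.82, 0.982, 2.71, 12.8 and 9.26 CPM in Tumor, 155 and 96.2 in WT 1 and 2, and 21.5, 1.48 and 2.88 in WT 3, 4 and 5. WT 1, 2 and 3 were above every Tumor library, while WT 4 and 5 were inside the Tumor range. Its log2 fold change was -3.51 ± 1.08 (edgeR adjusted p = 0.124), and it was called lower by DESeq2 (-3.56 ± 0.95, adjusted p = 0.00661). Without WT 4 edgeR called it as well, where 0.317% of all genes were lower, and against WT 1 and 2 the value was -4.69 ± 0.59 (6.81e-06). Smooth muscle genes (4 genes) summed to 15.4 to 63.3 CPM in Tumor and to 37.6, 17.7, 48.3, 93.0 and 164 in WT 1 to 5. Epithelial sums were the highest of the series in WT 1 and 2 and low in WT 3. The part of smooth muscle and epithelial RNA was not tested. Per kilobase, Cox7a1 made up 0.69 to 8.16% of Cox7a1 and Cox7a2 together in Tumor and 21.3, 15.6, 28.7, 2.32 and 18.8% in WT 1 to 5, the last from 43 reads of the pair.

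The remaining isoform pairs were dominated by the common form. Cox4i2, a form linked to oxygen sensing in lung, made up 0.11 to 3.27% of Cox4i1 and Cox4i2 in Tumor and 0.11 to 5.32% in WT. Cox6b2, the testis form, made up at most 0.81% of its pair in Tumor and 0.09, 0.25, 12.1, 0.22 and 14.99% in WT 1 to 5, the larger shares from WT 3 and WT 5, where few reads were counted. Cox6a2, Cox8b and Cox8c had at most 1.85 CPM in any library. Ndufa4, named as a complex I gene but now known to encode a subunit of complex IV, had 129 to 357 CPM in Tumor, 338 and 371 in WT 1 and 2 and 29.9 to 85.3 in the rest. Its relative Ndufa4l2, a hypoxia-induced gene, had 13.8, 0, 2.32, 2.07 and 14.5 CPM in Tumor and 0.741 to 6.56 in WT, with overlapping groups.

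In the ATP synthase, all 5 genes of the F1 head, which carries the catalytic sites, were higher against WT 3 to 5 (6.37% of all genes tested). Against WT 1 and 2, 3 of 5 were lower (2.09% of all genes tested). Atp5b (ENSMUSG00000025393, chr10:128083273-128090391), the catalytic beta subunit, had 445, 621, 594, 477 and 570 CPM in Tumor, 1036 and 1995 in WT 1 and 2, and 193, 138 and 31.1 in WT 3, 4 and 5, with no overlap. Its log2 fold change was 2.55 ± 0.70 against WT 3 to 5 (edgeR adjusted p = 0.0276) and -1.64 ± 0.38 against WT 1 and 2 (0.00778). Atp5a1, the alpha subunit, had 248 to 429 CPM in Tumor, 578 and 1138 in WT 1 and 2 and 28.6, 99.6 and 27.1 in the rest. Atp5e, the small epsilon subunit of the central stalk, had 611, 551, 482, 355 and 1143 CPM in Tumor, 825 and 835 in WT 1 and 2, and 159, 199 and 25.9 in WT 3, 4 and 5. Tumor 5 was above every WT library for Atp5e, which did not pass against WT 1 and 2 (-0.61 ± 0.40, edgeR adjusted p = 0.772). Atp5mpl, a small proteolipid of the membrane part, had 170 to 376 CPM in Tumor, 982 and 894 in WT 1 and 2, and 66.2, 143 and 1.73 in WT 3, 4 and 5.

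Atp5g1, Atp5g2 and Atp5g3 encode the same mature c subunit of the rotor ring behind different import sequences. Atp5g1 had 95.6, 119, 143, 73.7 and 294 CPM in Tumor, 500 and 732 in WT 1 and 2, and 10.1, 45.6 and 63.3 in WT 3, 4 and 5. It was lower against WT 1 and 2 (-2.30 ± 0.42, edgeR adjusted p = 0.000599) and higher against WT 3 to 5 (2.21 ± 0.65, 0.0382). Atp5g3 was lower against WT 1 and 2 (-1.53 ± 0.38, 0.0138 in edgeR's test) and Atp5g2 was not (-1.09 ± 0.41, 0.179); differences between the 3 genes were not tested. Per kilobase, Atp5g1 gave 7.20 to 19.5% of the 3 genes' level in Tumor, 21.9 and 22.1% in WT 1 and 2, and 2.85, 8.95 and 59.9% in WT 3, 4 and 5, where as few as 140 reads fell on the 3 genes. Atp5g3 gave the largest part in every Tumor library, 45.8 to 52.9%.

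**Figure D4:**
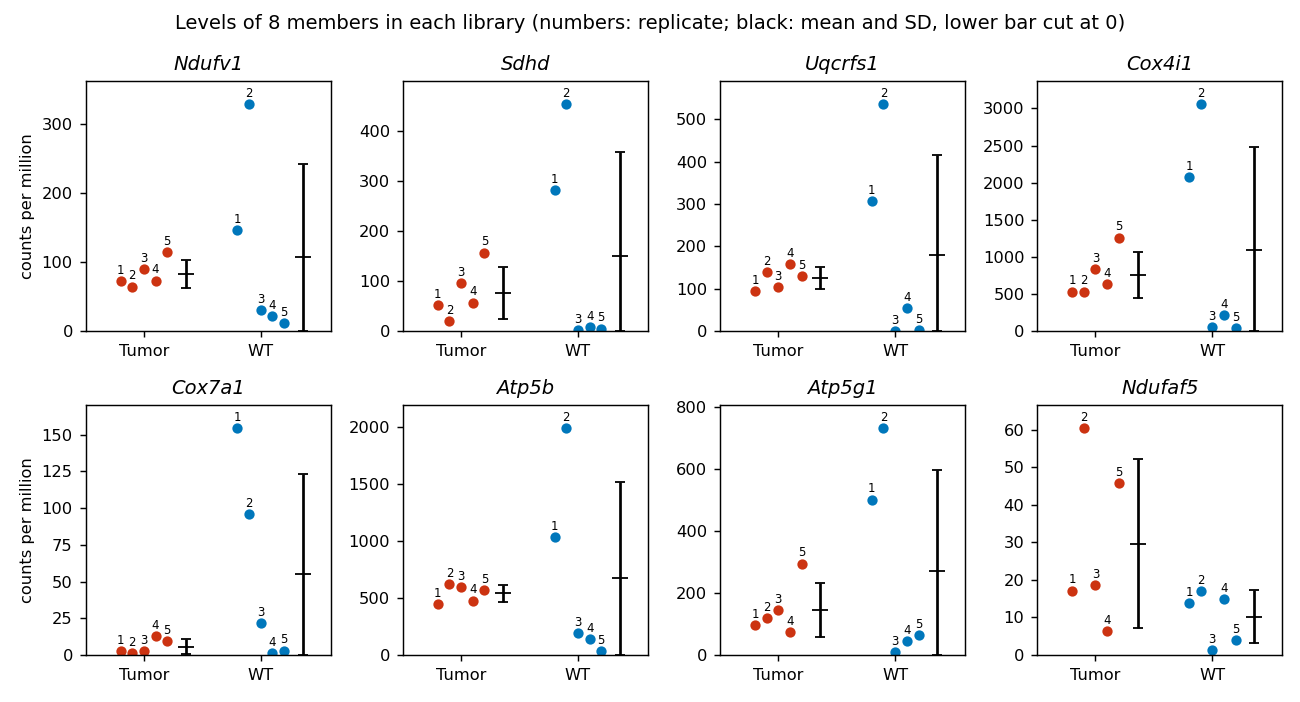
Level of 8 members in each library in CPM (vertical axes from 0), with the replicate number beside each point and the mean and SD of each group (n = 5) in black. For Ndufv1, Sdhd, Uqcrfs1, Cox4i1, Atp5b and Atp5g1 the Tumor points lie between WT 1 and 2 above and WT 3, 4 and 5 below, Cox7a1 is high in WT 1 and 2, and Ndufaf5 overlaps.

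Set against T cell genes, the members' level was alike in Tumor and in WT 3, 4 and 5. The ratio of the members' sum to the pan-T sum was 2.67, 2.70, 2.49, 2.65 and 4.45 in Tumor 1 to 5, 2.86, 3.26 and 2.56 in WT 3, 4 and 5, and 206 and 86.6 in WT 1 and 2. The 3 low WT libraries lay inside the Tumor range, and Tumor 5 was the highest Tumor library. Tumor 5 had the highest epithelial and the highest macrophage and monocyte sum of its group, and the part of these in the ratio was not tested. When library sizes were set by the pan-T genes, 87 of 88 members were lower and 0 higher in Tumor against all 5 WT libraries, where 91.8% of all genes were lower and 0.0841% higher, so the members' count was near the background. With that scaling against WT 1 and 2 alone, 88 of 91 were lower and 0 higher, where 74.5% of all genes were lower and 0.0732% higher. Against WT 3 to 5 with the same scaling, a comparison chosen after seeing the data, 5 of 88 members were lower and 0 higher, where 59.0% of all genes were lower and 0.246% higher. These 5 were Ndufab1, Ndufaf7, Ndufb4, Ndufs1 and Cox6b2, of which Ndufab1, the mitochondrial acyl carrier protein, and Ndufaf7 were named after their values were seen. The members' median log2 fold change was then -0.06, against -3.17 for all genes tested, with complex medians of -0.37, 0.09, -0.06, 0.12 and 0.16 for complexes I to V. That scaling moved the median of all genes from -0.17 to -3.17. Against WT 3 to 5, 85 of the 88 members had a positive value by TMM and 43 with the pan-T scaling. The size and the call of a member in this comparison, and the direction of many, thus hold only under the scaling used. That was TMM wherever edgeR values are given with no scaling named.

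**Figure D5:**
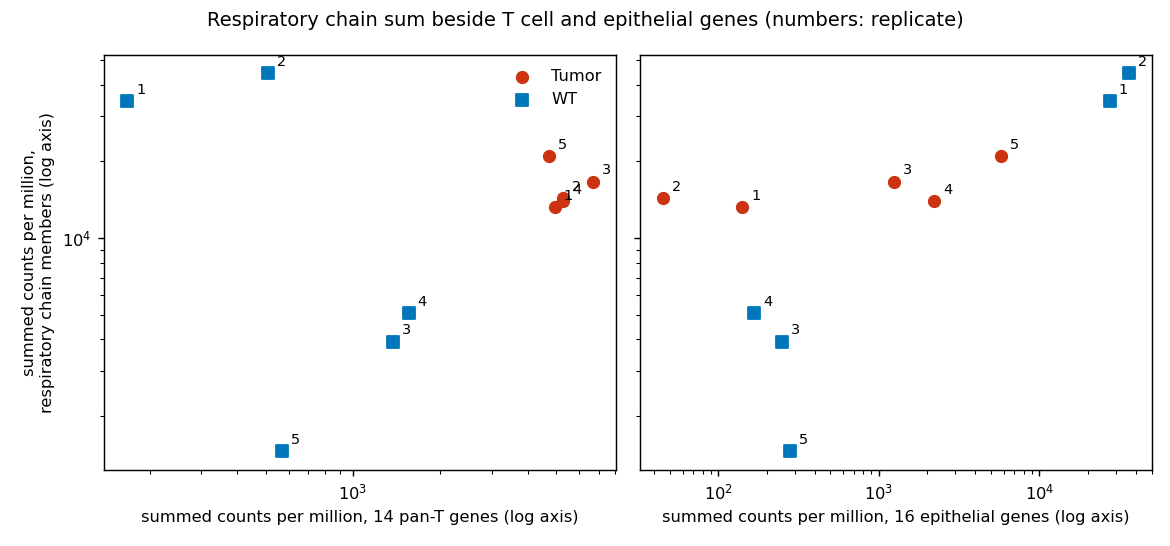
Summed level of the respiratory chain genes (vertical axis, log scale) against the summed level of 14 pan-T genes (left) and of 16 epithelial genes (right), in CPM on log axes, one point per library with its replicate number. On the left, WT 3, 4 and 5 are low on both axes and WT 1 and 2 combine the lowest pan-T sums with the highest member sums, and on the right Tumor 1 and 2 have epithelial sums below those of WT 3, 4 and 5 with member sums of 13216 and 14323.

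Other mitochondrial gene groups were read beside the chain. None of them had a called gene over all 10 libraries in edgeR's test: not the 16 citric acid cycle genes (median log2 fold change -0.18), the 77 mitochondrial ribosomal protein genes (0.30), the 11 protein genes of mitochondrial DNA (-1.47), the 13 regulators of respiratory genes (0.60) or the 41 carriers and assembly factors named outside the rule (-0.12). By TMM scaling against WT 3 to 5, 2 of 16, 20 of 77, 2 of 11, 0 of 13 and 11 of 41 were higher. Against WT 1 and 2, 5 of 16, 2 of 77, 8 of 13, 1 of 13 and 6 of 42 were lower. Of all genes tested, 6.37% were higher against WT 3 to 5 and 2.09% lower against WT 1 and 2 by that scaling. The 2 of 77 mitochondrial ribosomal genes and the 1 of 13 regulators are thus near the background. With the pan-T scaling against WT 3 to 5, 0, 0, 0, 0 and 1 genes of these groups were higher. In the same order, 2, 19, 3, 10 and 16 were lower, where 0.246% of all genes were higher and 59.0% lower. Against WT 1 and 2 with the pan-T scaling, all their tested genes were lower, where 74.5% of all genes were. By TMM scaling Cycs and Cyc1, cytochrome c and the cytochrome of complex III, moved like the members. Their log2 fold changes were 2.71 ± 0.63 and 3.37 ± 0.73 against WT 3 to 5 and -2.02 ± 0.40 and -2.08 ± 0.42 against WT 1 and 2. Each of these values was past the threshold in edgeR's test. With the pan-T scaling, neither gene passed against WT 3 to 5, and both were lower against WT 1 and 2.

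The ratio of the members to these groups differed by library. Over the mitochondrial ribosome, the members' sum was 4.05 to 4.79 times in Tumor, 8.999 and 7.17 times in WT 1 and 2, and 2.12, 3.48 and 1.09 times in WT 3, 4 and 5, so Tumor again lay between. Over the citric acid cycle it was 10.01 to 15.7 times in Tumor, 18.95 and 12.96 times in WT 1 and 2, and 4.25, 10.4 and 6.73 times in WT 3, 4 and 5, and here the ranges overlapped. Over the genes of mitochondrial DNA, which supply the remaining subunits of complexes I, III, IV and V, it was 4.23, 3.45, 3.51, 1.23 and 2.47 times in Tumor and 0.753, 1.31, 0.614, 1.71 and 0.332 times in WT. Only Tumor 4 lay within the WT range of that ratio.

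Many respiratory genes are known targets of NRF1, a transcription factor that binds a GC-rich palindrome, and of ETS family factors and YY1. All 94 members matched a RefSeq gene and 76 had a promoter sequence listed, from 250 bases before to 50 after the start (GRCm38.p6). The 10 letters GCGCANGCGC, the NRF1 palindrome with 1 free base, searched on both strands, stood in 19 of the 76 (25%) and in 5.19% of the 27025 promoters listed for all genes. The full palindrome GCGCATGCGC, a subset of these, stood in 7 (9.21%) against 1.07%. A window around it is shown for 5 members of complexes I, IV and V, 5′ to 3′ on the gene's strand, because these letters are shared by genes of different complexes that the rule chose by name alone, with the palindrome in capitals:
Ndufa11: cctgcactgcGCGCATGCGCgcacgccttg
Ndufaf4: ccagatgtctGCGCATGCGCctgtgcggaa
Cox6a1: caggaacgggGCGCATGCGCgctctcgctc
Atp5g2: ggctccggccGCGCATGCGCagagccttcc
Atp5k: tttcactgcgGCGCATGCGCctttctggct

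The windows lie upstream of the RefSeq starts, at chr17:56717692-56717721 (plus strand) for Ndufa11, an accessory subunit of complex I, and chr4:24897960-24897989 (plus) for Ndufaf4, an assembly factor. Those of Cox6a1, Atp5g2 and Atp5k, a membrane subunit of the ATP synthase, lie on the minus strand at chr5:115349101-115349130, chr15:102671070-102671099 and chr5:108434430-108434459. In the deposited gene models, whose starts can differ from RefSeq's, the Atp5g2 window lies inside the gene and the Atp5k window overlaps its first bases. The bases on either side of the palindrome differ among the 5. The ETS core CCGGAAG was in 23.7% of members' promoters against 9.93% of all, while the longer ETS letters CCGGAAGT were in 5 of 76 (6.58%) against 4.31%. The YY1 letters AAGATGGCG were in 10.5% against 1.64%. The ERR letters TCAAGGTCA were in 2 of 76 (2.63%) against 0.466%, and the TATA box letters TATAAA in 9.21% against 15.7%. Shares near those of all promoters were found for the CCAAT box (44.7 and 41.1%), the E box CACGTG (7.89 and 8.09%) and the SP1 letters GGGGCGGGG (17.1 and 12.9%). A match is a description of the letters, and 11 letter strings were counted in all.

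The tested members with and without the NRF1 letters had similar medians. The 19 with them had a median log2 fold change of -0.03 over all libraries, 2.39 against WT 3 to 5 and -1.21 against WT 1 and 2, and the 55 tested members with a listed promoter and no such letters had -0.15, 2.52 and -1.33. Cox6a1, with the full palindrome, was at 3.17 ± 0.83 against WT 3 to 5 and -1.93 ± 0.36 against WT 1 and 2. Ndufaf4, also with it, was at 0.81 ± 0.74 and -0.07 ± 0.67, with 59.2, 15.7, 15.4, 7.08 and 46.8 CPM in Tumor and 22.2, 30.1, 24.5, 24.4 and 12.7 in WT 1 to 5, and its groups overlapped. Genes with the same 10 letters thus had different values in these libraries.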

How the data were processed

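Per the labels' protocols, sorted Tregs were made into libraries with a transposase-based kit, and the group and number of each library came from its title. The authors deposited unscaled counts of reads for each gene. Per the submitters' processing notes the build was mm10 and the tools featureCounts 1.5.0-p3 and HISAT2 2.0.5. Which annotation, strand setting and handling of multi-mapping reads were used is not given in the sources used here, so members with processed pseudogene copies or overlapping neighbours are uncertain. The 10 single-sample tables held the same values as the series table, and no 2 libraries agreed within sampling noise (45 pairs, smallest chi-square per degree of freedom 25.7).

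Levels are CPM over the library's total count, with sums and shares computed from them in Python 3.11.15. Fits used R 4.3.3 and edgeR 4.0.16 (filterByExpr with a minimum count of 10 and total of 15, TMM scaling, robust quasi-likelihood F test, 2-sided, group as the only term, Benjamini-Hochberg adjustment over all genes tested, called at an adjusted p below 0.05). The biological coefficient of variation was 86.1%. A standard error is the log2 fold change divided by the square root of F. The procedure was tested on simulated counts. Alternatives included other scalings and filters, DESeq2 1.42.0, limma 3.58.1, the replicate number as a block and left-out libraries. For the pan-T scaling, library sizes came from 14 T cell genes with 0.5 added to each count. Reads carry no molecular identifiers, so limits from counts cover counting error only.

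Members were the 94 rows taken by name. The values of 1 member are not reported here. The text names, for each complex, the 2 tested members highest per kilobase, those with the highest and lowest log2 fold change, the core subunits and the isoform pairs, and otherwise says that a gene was chosen after its values were seen. The members, the lists of related and marker genes, the split of the WT libraries by marker genes and the alternatives were chosen with earlier results of these data known. RefSeq promoters (GRCm38.p6) were matched by symbol.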

Additional observations from a re-analysis of the deposited data

Results flagged for a closer look

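Among the 5 Tumor libraries, 1 library stood far from the other 4 for 6 of the named members, out of 78 groups of 5 libraries checked by Dixon's criterion (critical value 0.71). Chance gives about 1 flag in 20 groups. For 5 members the library was Tumor 5. In it, Cox6a1 had 695 CPM (the other Tumor libraries 458 to 509), Cox7a2 had 459 (247 to 279), Cox7a2l had 345 (148 to 202), Uqcr10 had 494 (185 to 224) and Uqcr11 had 428 (156 to 231). All 5 are small subunits or factors of complexes III and IV. Tumor 5 also had the highest epithelial sum of the group, 5764 CPM against 45.5 to 2224, and the highest macrophage and monocyte sum, 6107 against 1349 to 4901. Its neutrophil genes (5 genes) summed to 1740 CPM against 51.0 to 375, and its erythroid genes (4 genes) to 1111 against 0.327 to 228. The part of any of these in the values was not tested. The remaining value was Sdha in Tumor 4, at 217 CPM against 85.1 to 116 in the other Tumor libraries.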

How the results depend on the processing

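The 5 against 5 comparison called 0 members in either direction under every alternative in which all 10 libraries were used and edgeR's library scaling was not replaced by T cell genes, except DESeq2 (1 lower). Genes called in all were 340, against 1651 with DESeq2, 768 with limma voom and sample quality weights and 820 with no filter. The members' median was 1.20 with limma voom and 1.38 with quality weights. Leaving out 1 library at a time gave 62 to 455 genes called, 0 to 1 members lower (1, Cox7a1, without WT 4) and members' medians of -0.49 to 0.64, positive without WT 1 (0.16) or WT 2 (0.64). The replicate numbers did not pair the libraries: same-number correlations were -0.13 to 0.04 and no library correlated best with its own number. With the replicate block 0 members and 141 genes were called and the members' median was 1.12.

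Pan-T scaling called 87 members lower and 19673 genes, with a members' median of -4.12 and -3.96, -3.99, -4.42, -4.69 and -4.13 for complexes I to V. It turned, with a call, the named members Atp5e (-3.41), Atp5g2 (-3.76), Cox7a2l (-3.19), Ndufa1 (-4.07), Ndufa2 (-3.18), Ndufa4 (-3.72), Ndufaf5 (-2.14) and Sdha (-3.61). Ndufa4l2 turned with no call.

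Without WT 1 and 2, 57 members were higher and 1982 genes called, with medians of 2.42 for the members and 2.20, 2.95, 2.55, 2.47 and 2.55 by complex. Among the named members, the direction turned with a call for Atp5a1 (3.01), Atp5b (2.55), Atp5g1 (2.21), Cox4i1 (3.04), Cox5a (3.61), Cox6a1 (3.17), Cox6b1 (2.86), Cox7a2 (2.27), Cox8a (2.70), Ndufv1 (2.29), Sdhb (2.99), Sdhd (4.10), Uqcr10 (2.64), Uqcrc1 (2.53) and Uqcrh (2.41). Others, such as Uqcrfs1, turned with no call. Without WT 3, 4 and 5, 38 members were lower and 1325 genes called.

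Alternatives chosen after seeing the data gave these values. Pan-T scaling called 5 members lower and 14944 genes without WT 1 and 2, and 88 and 22398 (members' median -5.36) without WT 3, 4 and 5. Without WT 1, 2 and 3, then 4, then 5, in place of 3, 30, 71 and 53 members were higher, 1383, 2947 and 1545 genes called, and the medians 2.59, 3.10 and 2.07. With WT 2 alone 43 members were lower (956 genes), and with WT 1 alone 22 (875). Of 756 values of 33 named members under 23 alternatives, 562 kept direction and side, 52 came past the threshold, 119 changed sign with no call and 23 changed sign with a call. Apart from fewer libraries, the cause was not tested. Depth limits WT 3 and WT 5, where 18 and 28 tested members had under 10 reads.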

Other observations

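The genes for the ADP/ATP carriers of the inner membrane, which exchange the ATP made by complex V for ADP, were both higher in Tumor than in WT 3 to 5 by TMM scaling, and were on opposite sides of WT 1 and 2. Slc25a5, the form common in dividing cells, had a log2 fold change (Tumor over WT) of -0.96 ± 1.09 over all libraries, 4.16 ± 0.72 against WT 3 to 5 and -2.26 ± 0.38 against WT 1 and 2. Slc25a4, the form known from heart and muscle, was higher in Tumor against both sets of WT libraries, by 4.24 ± 0.88 against WT 3 to 5 (edgeR adjusted p = 0.00655) and 2.13 ± 0.50 against WT 1 and 2 (0.00828). Both comparisons share the Tumor libraries. Over all 10 libraries its value was 3.03 ± 0.82 and did not pass (edgeR adjusted p = 0.0711). With libraries scaled by the pan-T genes the direction of Slc25a4 against WT 1 and 2 turned, to -1.90 ± 0.54 (edgeR adjusted p = 0.00381), and against WT 3 to 5 it no longer passed (1.78 ± 1.01, 0.13). Slc25a5 was then -6.27 ± 0.45 and 1.69 ± 0.61 in the same order, both past the threshold. The difference between the carriers was not tested. Both were chosen after their values were seen.

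The cytosolic ribosomal protein genes (93 tested, by a name rule that also takes S6 kinase genes, which are included in all counts here) had a median log2 fold change of 0.84 over all libraries. Of these, 0 were called by edgeR (4 at an unadjusted p below 0.05), where 1.37% of all genes were higher and 0.219% lower. Against WT 3 to 5, 20 of 93 were higher (median 1.94), where 6.37% of all genes were. Against WT 1 and 2, 1 of 95 was lower (median -0.08), namely Rps27l, where 2.09% of all genes were. It was named after its value was seen. With the pan-T scaling against WT 3 to 5, 0 were higher and 16 of 93 lower, where 59.0% of all genes were lower. The 16 included the kinase genes Rps6ka2, Rps6ka3, Rps6ka5, Rps6ka6, Rps6kc1 and Rps6kl1, named after their values were seen. Against WT 1 and 2 with that scaling, 95 of 95 were lower, where 74.5% of all genes were. The members' sum was 0.225 to 0.328 times the sum of the ribosomal protein genes in Tumor. It was 0.838 and 0.618 times in WT 1 and 2, and 0.201, 0.161 and 0.238 times in WT 3, 4 and 5.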
